A study of Mus musculus with 4 samples.

Results

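Clustered zinc finger genes were taken from the autosomal protein-coding genes of the GENCODE mm10 annotation as those whose symbol starts with Zfp followed by a digit and that have at least 3 other such transcription start sites (TSS) within 500 kb. The rule found 193 of 20807 autosomal coding genes. A further 192 Zfp genes on autosomes fell outside it, out of 385 in all. The chosen genes formed 24 clusters on 10 chromosomes when TSS less than 500 kb apart were linked, with 1 to 23 genes and a median of 6 genes a cluster. The median cluster spanned 292 kb from the first to the last TSS and the longest 2178 kb, and with 50 kb added on either side the clusters covered 14.1 Mb. The rule used symbols and positions, and none of the measured values.

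The libraries were H3K4me3 HiChIP-seq of MLg cells, a mouse lung fibroblast line, in which ligated MboI fragments are precipitated with an antibody against trimethylated lysine 4 of histone H3, so that each pair of reads reports 2 places that lay close together and both ends pile up where the mark is. The study asked how TGFB1, a cytokine that activates fibroblasts, changes chromatin contacts and whether miR-9 is needed for it. In all, 4 libraries were available, 1 for each condition. The Control library is labelled as wild type, the TGFB1 library came from cells given 5 ng/ml TGFB1 for 4 h, the miR-9-LOF library from cells transfected with 60 nM of an antagomiR against miR-9-5p, and the TGFB1+miR-9-LOF library from cells that received both. According to the methods, cells without the miR-9 antagomiR received a control antagomiR, which the labels of these libraries do not state, and all cells were harvested 24 h after transfection. MLg is 1 established line and each condition is a single library, so every difference below is a difference between libraries, and its error is counting error alone. Values of the 4 libraries are given in the same order throughout, which is Control, then TGFB1, then TGFB1+miR-9-LOF, with miR-9-LOF last.

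Zfp genes encode DNA-binding proteins with arrays of C2H2 zinc fingers. Most clustered ones belong to the KRAB family, whose KRAB domain recruits the corepressor Trim28 (KAP1) and with it the histone methyltransferase Setdb1 and HP1 proteins, and which is best known for silencing transposable elements. The genes arose by tandem duplication, so that neighbours resemble each other in sequence, and their clusters are known to carry heterochromatin marks over the gene bodies while promoters can carry H3K4me3. Olfactory receptor (Olfr) genes are tandem clusters as well, and they are silent outside olfactory neurons. The 1095 Olfr genes that meet the same rule, in 34 clusters, were therefore used for comparison. With 50 kb added on either side, some Olfr clusters on chr7, chr9, chr11 and chr17 overlap Zfp clusters, so pairs there can count for both kinds.

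The promoters of members at both ends of the range of enrichment are shown first, because the range was wide and the promoters differ in CpG content. Enrichment is the number of read ends within 2 kb of a TSS over that expected from its flank, 10 to 100 kb away. It does not rank members by their number of ends. Of the 193 members, 158 had a RefSeq promoter (GRCm38.p6) that starts within 2 kb of the TSS used here. Each line gives 250 bases before and 50 bases after the RefSeq start, 5′ to 3′ on the gene's strand, with CpG dinucleotides in capitals. Zfp873, Zfp780b and Zfp954 had the highest enrichment of all members, Zfp764 and Zfp747 had little in a well covered region, and Zfp955b had no usable read.
Zfp873: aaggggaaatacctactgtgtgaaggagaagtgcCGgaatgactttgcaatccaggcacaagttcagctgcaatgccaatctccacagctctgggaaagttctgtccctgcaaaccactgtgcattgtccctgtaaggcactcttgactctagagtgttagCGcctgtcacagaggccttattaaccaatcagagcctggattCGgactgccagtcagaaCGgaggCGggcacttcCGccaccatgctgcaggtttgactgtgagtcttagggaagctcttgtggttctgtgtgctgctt
Zfp780b: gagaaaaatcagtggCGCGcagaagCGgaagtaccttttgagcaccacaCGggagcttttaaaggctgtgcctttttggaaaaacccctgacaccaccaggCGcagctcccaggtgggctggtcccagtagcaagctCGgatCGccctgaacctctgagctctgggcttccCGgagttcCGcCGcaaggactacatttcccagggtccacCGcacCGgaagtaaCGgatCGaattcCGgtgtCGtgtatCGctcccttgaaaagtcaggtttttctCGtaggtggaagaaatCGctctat
Zfp954: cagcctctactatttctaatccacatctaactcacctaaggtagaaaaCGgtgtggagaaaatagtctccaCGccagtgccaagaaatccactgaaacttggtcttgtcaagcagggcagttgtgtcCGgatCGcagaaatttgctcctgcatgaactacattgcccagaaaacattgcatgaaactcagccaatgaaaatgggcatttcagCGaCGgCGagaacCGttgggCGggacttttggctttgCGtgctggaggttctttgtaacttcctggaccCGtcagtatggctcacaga
Zfp764: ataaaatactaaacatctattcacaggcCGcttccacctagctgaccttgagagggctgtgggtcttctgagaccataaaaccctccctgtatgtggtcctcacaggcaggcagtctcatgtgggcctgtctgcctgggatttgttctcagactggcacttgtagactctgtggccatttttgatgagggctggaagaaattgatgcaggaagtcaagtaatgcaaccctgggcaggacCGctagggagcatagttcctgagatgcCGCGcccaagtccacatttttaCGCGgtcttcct
Zfp747: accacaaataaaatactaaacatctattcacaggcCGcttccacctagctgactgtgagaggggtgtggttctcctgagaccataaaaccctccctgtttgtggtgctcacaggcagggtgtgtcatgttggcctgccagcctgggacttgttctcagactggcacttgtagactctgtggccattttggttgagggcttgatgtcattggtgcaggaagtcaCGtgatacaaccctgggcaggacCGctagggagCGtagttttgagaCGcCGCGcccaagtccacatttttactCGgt
Zfp955b: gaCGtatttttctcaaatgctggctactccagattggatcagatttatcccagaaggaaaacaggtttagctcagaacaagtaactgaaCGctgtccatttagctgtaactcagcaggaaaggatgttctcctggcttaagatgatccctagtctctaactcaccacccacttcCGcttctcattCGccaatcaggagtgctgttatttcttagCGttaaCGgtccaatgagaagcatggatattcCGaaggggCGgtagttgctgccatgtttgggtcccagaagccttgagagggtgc
In that order they lie at chr10:82047873-82048172 (plus strand), chr7:27979108-27979407 (minus strand), chr7:7121427-7121726 (minus strand), chr7:127406773-127407072 (minus strand), chr7:127376001-127376300 (minus strand) and chr17:33289294-33289593 (plus strand).
The promoter of Zfp873 holds 6 CpG, that of Zfp780b 19, that of Zfp954 11, that of Zfp764 6, that of Zfp747 8 and that of Zfp955b 8. The promoter with the highest enrichment therefore held no more CpG than that of Zfp764. The regions of these genes differed in coverage, however. The clusters of Zfp873 and Zfp954 had 0.191 and 0.474 times the mean coverage of their chromosome, that of Zfp780b 1.79 and that of Zfp764 2.29. In Control, Zfp873 had 246 ends at its TSS, Zfp954 230 and Zfp780b 645, where Zfp36 had the most of all members, 962. Over the 158 promoters the median was 11 CpG (quartiles 8 and 17), below the 17 of Zfp genes outside clusters and the 16 of all 13965 autosomal coding promoters matched, and far above the 1 of 326 clustered Olfr promoters. At least 10 CpG were found in 98 member promoters, or 62.0%, where 64.2% of all coding promoters had that many. Members with a mean enrichment of at least 3 had a median of 12 CpG (n = 61) and those under 1.5 a median of 9 (n = 51). As a description across genes, which share libraries, depth and base composition, Spearman's rho of CpG number with enrichment was 0.27 to 0.30 over the 158 members in the 4 libraries and 0.47 to 0.54 over all 13965 promoters.

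Some member promoters shared sequence with each other, which bears on how well reads can be placed. Such sharing was not counted for other promoters. Of the 158 promoters, 39 shared at least 1 run of 25 bases with the promoter of another member, and 12 shared at least 50% of their runs. Zfp955a and Zfp955b shared 100% of them, Zfp758 and Zfp943 shared 89.1%, Zfp942 and Zfp944 shared 81.9%, and Zfp534 and Zfp987 shared 60.9%. Zfp942 and Zfp943 start head to head, as do Zfp944 and Zfp758, so the 4 promoters form a duplicated pair of divergent promoters on chr17. In both head-to-head pairs the start sites lie within 4 kb, so the windows of the partners overlap and share ends. Zfp764 and Zfp747, neighbours on chr7, shared 15.2%. A pair was counted where neither end had a mapping quality under 30, and near-identical copies can lose ends to this filter, so their values are uncertain.

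The 4 libraries held 15359978, 10864558, 14121095 and 15568047 valid pairs, of which 26296288, 18698986, 24116978 and 25234208 ends lay on autosomes in pairs with both ends past the filter. Ends within 2 kb of any coding TSS made up 14.1%, 10.997%, 7.71% and 8.54% of them, and those at member TSS 0.131%, 0.0985%, 0.0645% and 0.0764%, so the libraries differed in how far H3K4me3 was enriched, most of all between those with and without the miR-9 antagomiR. Fibroblast identity was read from 12 marker genes, of which 6, 5, 4 and 5 had an enriched TSS, or 50%, 41.7%, 33.3% and 41.7%. Over all coding TSS the shares were 27.9%, 21.0%, 8.66% and 13.0%. Twist2, Prrx1, Vim, Pdgfra, Loxl1 and Pdgfrb were enriched in Control. Col1a1 at 3.78-fold and Thy1 at 1.03-fold were not enriched in Control, nor were Col1a2, Col3a1, Fn1 and Sparc. None of 7 epithelial, 5 endothelial and 6 immune marker genes was enriched in any library.

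TSS of clustered Zfp genes carried H3K4me3 in part. Enrichment was the number of ends within 2 kb of a TSS over that expected from the region 10 to 100 kb away, and a TSS was called enriched at a false discovery rate of 0.01 over all coding TSS (Poisson, Benjamini-Hochberg) and at least 4-fold. By this rule 70, 46, 12 and 19 of the 193 members were enriched, or 36.3%, 23.8%, 6.22% and 9.84%. Over all 20807 coding TSS the shares were 27.9%, 21.0%, 8.66% and 13.0%. At these limits the members were above the background in Control and TGFB1 and below it in both libraries with the miR-9 antagomiR, but this order depended on the limits. With a window of 1 kb 53.9%, 45.1%, 26.4% and 31.1% of the members were enriched, above the 36.0%, 31.0%, 20.3% and 24.9% of all TSS in every library, and at 2-fold they were above it as well. With a window of 5 kb, or against the larger of the flank and the chromosome mean, they were below it in every library, with 25.9%, 12.4%, 2.59% and 4.66% against 26.6%, 19.6%, 7.46% and 11.8% in the latter case. At 8-fold 6.22% of members and 9.88% of all TSS were enriched in Control. At the main limits, Zfp genes outside clusters were above the members and the background, with 94, 69, 24 and 33 of 192 enriched, and clustered Olfr genes were almost never enriched, with 4, 3, 3 and 2 of 1095. The median enrichment of the members was 2.95, 2.45, 1.87 and 1.99, that of all coding TSS 1.60, 1.55, 1.44 and 1.46, that of Zfp genes outside clusters 3.81, 2.80, 2.04 and 2.31, and that of Olfr genes 1.02, 1.05, 1.06 and 1.01.

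**Figure D1:**
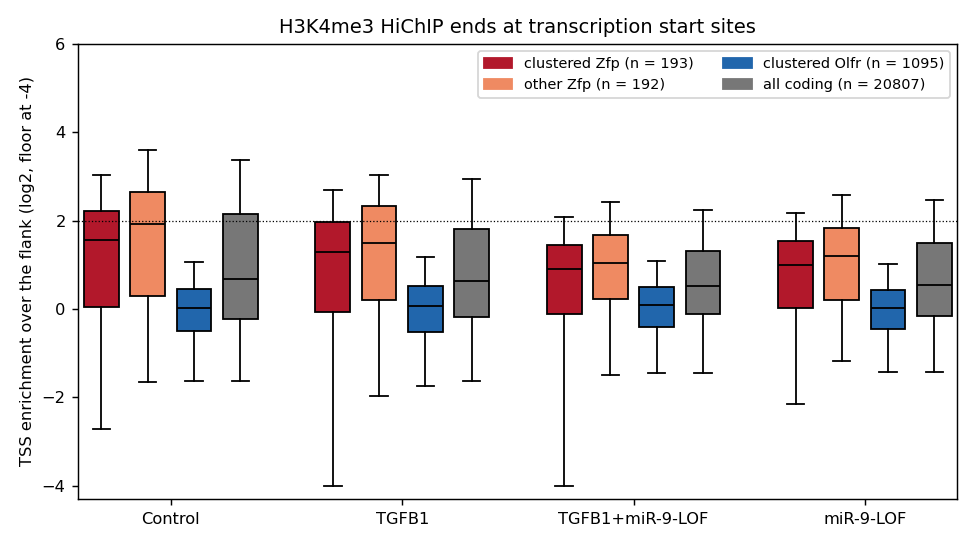
Enrichment of HiChIP ends within 2 kb of a TSS over the flank 10 to 100 kb away, on a log2 scale with a floor at -4, for clustered Zfp genes, Zfp genes outside clusters, clustered Olfr genes and all coding genes in the 4 libraries. The dotted line marks the 4-fold limit. Clustered Zfp genes have medians of 2.95 in Control and 1.87 in TGFB1+miR-9-LOF, between Olfr genes near 1 and Zfp genes outside clusters.

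Members ranged from no end at all to 962 ends. The median member had 131, 72, 70 and 81 ends, the highest had 962, 485, 356 and 436, and 8, 11, 12 and 9 members had no end. Cells were measured in bulk, so a mark in fewer cells and less of the mark per cell cannot be told apart. The interquartile range of the enrichment was 1.02 to 4.63 in Control and 0.92 to 2.74 in TGFB1+miR-9-LOF, and 47, 50, 50 and 48 members lay below 1. The TSS used was the 5′ end of the gene record, from which the first principal transcript started over 2 kb away in 27 members. Counted at that start instead, 65, 40, 10 and 18 members were enriched, or 33.7%, 20.7%, 5.18% and 9.33%, beside 28.2%, 21.2%, 8.72% and 13.3% of all TSS. For 22 members another coding TSS lies within 4 kb and shares ends. Counted over libraries, 122 members were enriched in none, 25 in 1, 28 in 2, 6 in 3 and 12 in all 4. This count was not made over all coding TSS, so it has no background to be read against. The 12 were Zfp579, Zfp78, Zfp954, Zfp780b, Zfp84, Zfp790, Zfp141, Zfp868, Zfp873, Zfp748, Zfp946 and Zfp40, which lie in 11 different clusters. Among these, Zfp78, Zfp780b and Zfp868 were enriched at the 5′ end of the record but not at the principal start, which lay 8.08, 3.803 and 6.196 kb away with 1.17, 1.52 and 1.81 times the flank in Control.

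The highest enrichment belonged to Zfp873 (ENSMUSG00000061371, chr10:82048123-82064745, plus strand), 1 of 2 members of its cluster. Its TSS had 246, 144, 115 and 168 ends, or 9.35, 7.70, 4.77 and 6.66 per 1000000, and these were 18.7, 15.7, 9.69 and 12.3 times the flank. Control was highest and TGFB1+miR-9-LOF lowest. Its neighbour Zfp781 had no end in any library. Zfp780b (chr7:27959135-27979171, minus strand) followed with 645, 357, 225 and 330 ends, which were 11.6, 10.1, 5.70 and 7.38 times the flank. Zfp954 (chr7:7114690-7121488, minus strand) had 230, 121, 97 and 105 ends, at 11.8, 9.20, 5.87 and 5.10 times the flank. Zfp84 (chr7:29768552-29779821, plus strand) had more ends, 809, 446, 288 and 362, over a richer flank, and an enrichment of 10.7, 9.38, 5.61 and 5.504. In each of these genes Control was highest, TGFB1 came next and the libraries with the miR-9 antagomiR were lower.

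The same order of Control and TGFB1 above the others held for the remaining members of the 8 with the highest median enrichment. Zfp868 on chr8 was enriched 11.1, 7.98, 5.74 and 5.82 times, and Zfp141 on chr7 9.67, 7.47, 5.72 and 4.48 times. Zfp748, on chr13, was enriched 8.90, 7.05, 5.67 and 5.26 times. Zfp40, the only member of its cluster on chr17, was enriched 8.30, 7.37, 5.89 and 5.09 times on few ends (105, 67, 72 and 79). In the comparisons of libraries described below, none passed for Zfp40 and only miR-9-LOF over Control did for Zfp141. Control and TGFB1 also had the larger shares of ends at all coding TSS.

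At the other end, some genes had nothing to count and others lacked enrichment in well covered regions. Zfp978, on chr4, had no end in any library, with or without the filter on mapping quality, and Zfp955b had none past the filter and 1 in all without it. A count of 0 allows up to 3 ends a library. Zfp534 had 1 end and Zfp987 had 2, all in Control, and Zfp729b had 3, 1, 2 and 1, with 80% of its unfiltered ends below the mapping quality limit. Zfp764 (chr7:127403668-127406822, minus strand) stood in a region with many ends yet had 23, 17, 22 and 23 ends at its TSS, which were 0.15, 0.20, 0.27 and 0.24 times its flank of 6754, 3766, 3677 and 4389 ends. No end at its TSS was itself below the mapping quality limit before filtering. Its neighbour Zfp747 had 16, 19, 12 and 20 ends. In both genes the libraries overlapped within counting error.

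Clusters differed in how many members carried the mark. In Control, 10 of 19 members of the chr17 cluster from Zfp160 to Zfp946 were enriched, 7 of 23 in the chr13 cluster from Zfp712 to Zfp273, 5 of 9 in the chr7 cluster from Zfp607b to Zfp36, 5 of 7 from Zfp551 to Zfp446 and 3 of 12 from Zfp180 to Zfp575. The chr4 cluster from Zfp980 to Zfp933, with 17 members, had 1, 0, 0 and 0 enriched. All its TSS together had 144, 61, 90 and 95 ends, with a median of 2 ends a member in Control. Its region had 0.134 times the mean coverage of its chromosome, 23.8% of its ends lay below the mapping quality limit and 18.96% of its sequence is unresolved in the assembly, so low counts there cannot be told apart from reads that could not be placed. Without this cluster 69, 46, 12 and 19 of 176 members were enriched. The same holds for Zfp965 and Zfp969 on chr2, in a region with 29.97% unresolved sequence, which had no end. Over all clusters, members with at least 20% of their ends below the mapping quality limit were enriched in 3, 3, 0 and 0 of 20 cases, and the rest in 67, 43, 12 and 19 of 173.

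**Figure D2:**
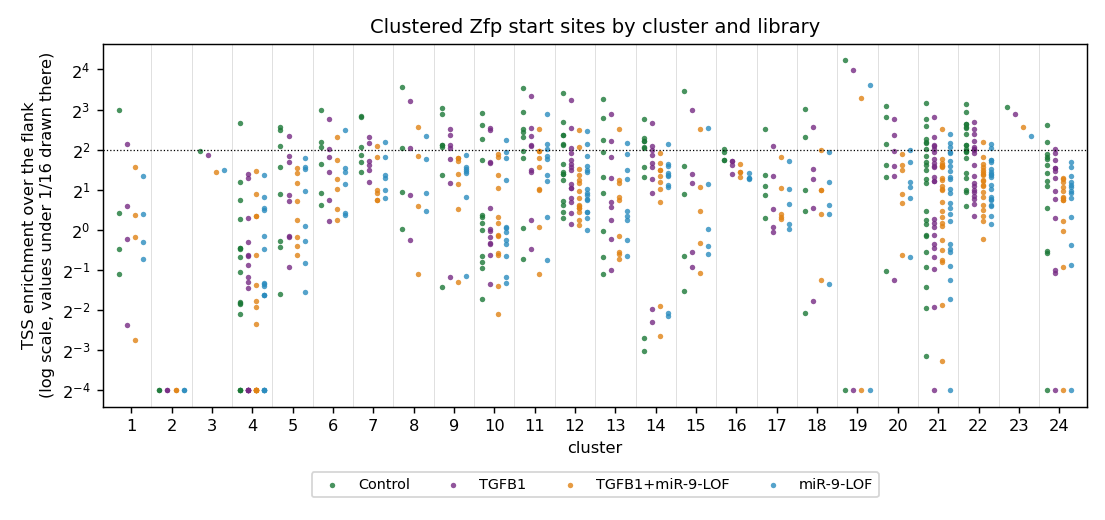
Enrichment of the TSS of each of the 193 members over its flank, on a log scale with values under 1/16 drawn there, by cluster and in the colour of the library. The dotted line marks the 4-fold limit. Members above it occur in most clusters beside others near or below 1, and cluster 4, on chr4, has a single point above it, in Control.

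In 4 clusters, picked after their values were seen, a gene with an enriched TSS is set beside one without. In the chr6 cluster, Zfp777 had 390, 249, 182 and 236 ends and was enriched 5.91, 5.09, 2.90 and 3.43 times, while Zfp746, which encodes PARIS, a repressor of Ppargc1a, had 20, 40, 37 and 35 ends at 0.33, 0.89, 0.64 and 0.56 times its flank. In the chr11 cluster, Zfp354a was enriched 8.46, 6.81, 3.06 and 3.26 times and Zfp354c 7.05, 5.15, 3.70 and 3.99 times, and between them Zfp879 lay at 0.49, 0.42, 0.65 and 0.63. In the chr9 cluster, Zfp599 was enriched 8.12, 5.92, 3.95 and 3.87 times and Zfp872 lay at 0.24, 0.29, 0.42 and 0.39. The chr7 cluster from Zfp628 to Zfp580 held Zfp579, with 895, 485, 356 and 436 ends and an enrichment of 7.91, 6.83, 4.95 and 5.62, and Zfp580, at 1.53, 1.16, 1.18 and 1.29.

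Genes with a known role were spread over this range. Zfp809, which silences endogenous retroviruses through Trim28, had 224, 86, 74 and 88 ends and was enriched 4.95, 2.86, 1.99 and 2.27 times. Zfp568, which represses a placental transcript of Igf2, had 246, 135, 101 and 118 ends at 3.14, 2.84, 1.75 and 1.70 times the flank at the 5′ end of its gene record. Its principal transcript starts 3.82 kb away, where 52, 28, 37 and 52 ends were 0.65, 0.59, 0.64 and 0.75 times the flank. Zfp708, which binds a class of retroviral repeats and keeps them methylated, had 7, 11, 6 and 10 ends at the 5′ end of its gene record and was below its flank there in every library, with 20.8% of its ends under the mapping quality limit. Its principal transcript starts 16.5 kb away, where 81, 59, 59 and 72 ends were 3.30, 3.72, 2.81 and 3.36 times the flank. Zfp961 had 126, 65, 75 and 83 ends at 3.87, 3.05, 3.11 and 2.67 times. Zfp36 is a member by its symbol only, since it encodes tristetraprolin, an RNA-binding protein with CCCH zinc fingers that drives the decay of AU-rich mRNAs. It had the most ends of all members in Control, 962, 428, 310 and 396, and was enriched 7.64, 5.84, 3.88 and 4.38 times.

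Genes on either side of the limit of 3 neighbours were compared once. The 21 members with exactly 3 neighbours had a median enrichment of 3.32, 3.05, 2.70 and 2.43, and the 39 Zfp genes with exactly 2 neighbours, just outside the rule, had 3.58, 2.87, 2.26 and 2.31. Enriched were 8, 7, 4 and 5 of the former and 17, 12, 1 and 3 of the latter, beside 27.9%, 21.0%, 8.66% and 13.0% of all coding TSS. These sets are small, and no test was made of the difference between them.

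Corepressors and heterochromatin proteins that work with KRAB zinc fingers were read from a list of 22 genes found in the annotation. Enriched TSS were found for 6, 5, 0 and 2 of them, or 27.3%, 22.7%, 0% and 9.09%, which is near or below the share over all coding TSS given above. Those described next were picked by their values or for their known part with KRAB proteins. Cbx5, which encodes HP1 alpha, had 38.0, 27.3, 15.96 and 16.5 ends per 1000000 at 7.56, 5.76, 3.89 and 4.09 times the flank at the 5′ end of its record, though not at the start of its principal transcript. Cbx3, which encodes HP1 gamma, had 9.57, 6.81, 3.59 and 4.45 times the flank. Mphosph8, a subunit of the HUSH silencing complex, was enriched 6.89, 6.25, 2.84 and 3.61 times, and Uhrf1, which maintains DNA methylation, 5.58, 4.02, 2.89 and 3.48 times. Trim28 lay at 0.32, 0.35, 0.49 and 0.53 times its flank at the 5′ end of its gene record, but its principal transcript starts 25.04 kb away, where 360, 186, 137 and 148 ends were 3.75, 3.28, 2.51 and 2.25 times the flank, under the 4-fold limit. Setdb1 lay at 1.96, 1.57, 1.66 and 1.63.

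The question of TGFB1 and miR-9 was put to each member by comparing libraries. Ends at a TSS were compared by a two-sided exact binomial test with the totals of the libraries as the expected share, and adjusted over all coding TSS with at least 20 ends in both libraries together. Members mostly had fewer ends with TGFB1 than in Control, where 168 of 193 could be tested. In this comparison 2 members had more and 76 fewer ends at a false discovery rate of 0.05, against 1.04% and 34.5% of all TSS tested. The median log2 ratio was -0.39 over the members and -0.27 over all TSS. Set against the ends within 2 kb of all coding TSS, in place of all ends, 4 members had more and 2 fewer, or 2.38% and 1.19%, beside 3.43% and 1.58% of all TSS. On that scale the median log2 ratio over all TSS was 0.09 here and 0.17, 0.28 and 0.04 in the next 3 comparisons, and that over the members was -0.035, -0.040, 0.0075 and -0.093.

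Both comparisons of the miR-9 antagomiR went the same way. Of 167 members tested, 0 had more and 82 fewer ends in TGFB1+miR-9-LOF than in TGFB1, where 0.908% and 38.9% of all TSS were called, and the medians were -0.55 and -0.34. Of 171 members tested, 1 had more and 115 fewer ends in miR-9-LOF than in Control, where 2.36% and 47.4% of all TSS were called, and the medians were -0.71 and -0.44. Scaled to the ends at all coding TSS, the first gave 4 members with more and 8 with fewer, or 2.40% and 4.79%, beside 10.7% and 6.17% of all TSS. The second gave 21 with more and 17 with fewer, or 12.3% and 9.94%, beside 32.2% and 13.4% of all TSS. TGFB1 in the presence of the antagomiR changed the fewest members. Of 170 tested, 0 had more and 14 fewer ends in TGFB1+miR-9-LOF than in miR-9-LOF, beside 0.431% and 6.78% of all TSS, with medians of -0.24 and -0.11, and 1 and 1 when scaled to ends at TSS, or 0.588% in each direction beside 0.533% and 0.700%. The effect of TGFB1 differed with and without the antagomiR in 4 of 145 members with at least 20 ends in every library, beside 2.69% of all TSS tested. The 4 comparisons share libraries in pairs, so their values are not independent of each other. The share of ends at coding TSS, given above, differed between the libraries in the same direction. The scaled counts set this share equal by 1 factor for all TSS, and why it differed was not tested.

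**Figure D3:**
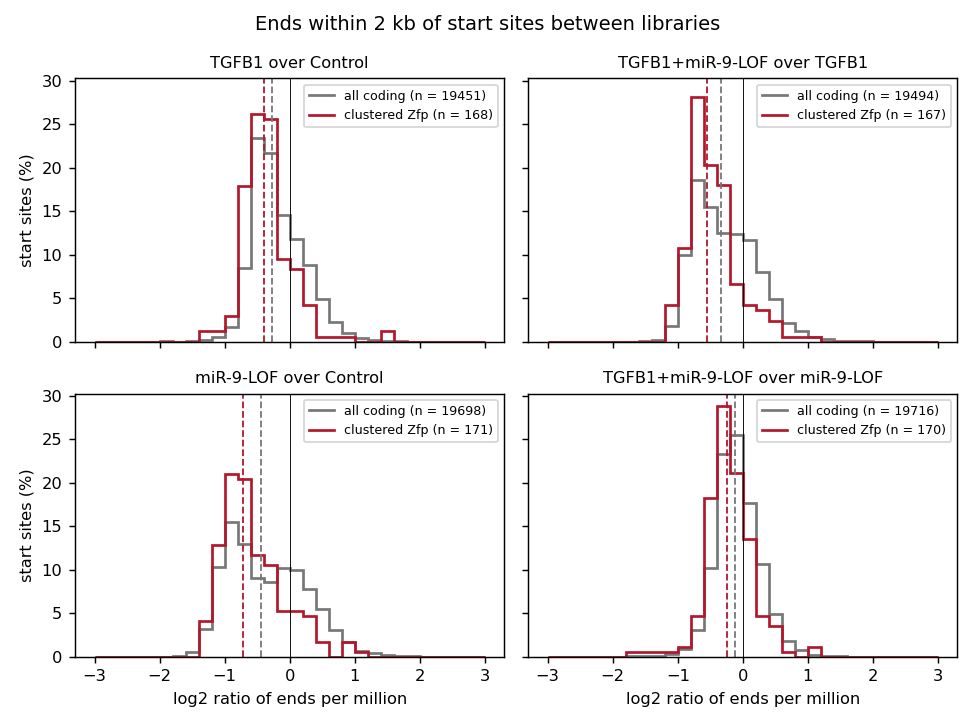
Log2 ratio of ends per 1000000 within 2 kb of a TSS between libraries in the 4 comparisons, as the percentage of TSS in each bin, for clustered Zfp genes and all coding genes with at least 20 ends in both libraries together. Dashed lines are medians, which for the members lie at -0.39, -0.55, -0.71 and -0.24, to the left of those over all TSS in each comparison.

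The members' median was set beside that of other TSS of like enrichment. Among the 69 members with a mean enrichment of at least 3, the median log2 ratio of TGFB1 over Control was -0.44, and it was -0.45 for the 5730 other TSS of that enrichment. For the antagomiR in TGFB1-treated cells it was -0.65 and -0.71, in untreated cells -0.85 and -0.93, and for TGFB1 in the presence of the antagomiR -0.27 and -0.22. From 1.5 to 3, the 54 members tested were lower than other TSS in all 4 comparisons, at -0.38 against -0.31, -0.57 against -0.41, -0.77 against -0.59 and -0.26 against -0.14 in the same order. Below a mean enrichment of 1.5 the members were lower than other TSS, at -0.22 against 0.02 for TGFB1 over Control, -0.26 against 0.02 for the antagomiR in TGFB1-treated cells, -0.06 against 0.02 in untreated cells and -0.10 against 0.02 for TGFB1 in its presence. The interquartile ranges of the members and the others overlapped in all 3 classes of enrichment and all 4 comparisons. No test was made of these differences.

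The members with the smallest p for fewer ends were those with many ends. Zfp36, with 36.6, 22.9, 12.9 and 15.7 ends per 1000000, fell by 0.68 on the log2 scale in TGFB1 against Control (exact binomial test, adjusted p = 9.45e-14) and by 1.22 in miR-9-LOF against Control (adjusted p = 1.14e-47), or by 0.32 and 0.50 when scaled to ends at TSS. Zfp689, on chr7, had 846, 444, 267 and 381 ends and fell by 1.10 in TGFB1+miR-9-LOF against TGFB1 (exact binomial test, adjusted p = 1.73e-21) and by 1.09 in miR-9-LOF against Control (adjusted p = 2.35e-35), and scaled by 0.59 and 0.37. Zfp84 fell by 1.00 and 1.10 in the same comparisons (exact binomial test, adjusted p = 1.43e-18 and 2.69e-34), and Zfp780b by 1.03 in the first (adjusted p = 7.23e-16). Scaled to ends at TSS, Zfp84 fell by 0.49 and 0.38 and Zfp780b by 0.52, and these 4 genes kept their calls. Control was the highest and TGFB1+miR-9-LOF the lowest library in all 4 genes. Zfp428, with 576, 261, 224 and 330 ends, fell by 0.65 in TGFB1 against Control (exact binomial test, adjusted p = 2.45e-08), and Zfp646, with 508, 223, 196 and 216, fell by 0.70 (adjusted p = 2.71e-08). Scaled to ends at TSS, neither of the last 2 passed, with log2 ratios of -0.29 and -0.34.

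In TGFB1+miR-9-LOF against miR-9-LOF the smallest p belonged to Zfp382, Zfp30 and Zfp428. Zfp382 had 569, 268, 164 and 278 ends and fell by 0.70 (exact binomial test, adjusted p = 0.00014). Zfp30 had 432, 197, 154 and 246 ends and fell by 0.61 (exact binomial test, adjusted p = 0.00224), and Zfp428 fell by 0.49 (adjusted p = 0.0039). Scaled to ends at TSS, Zfp382 kept its call with a log2 ratio of -0.55, and Zfp30 and Zfp428 lost theirs with -0.46 and -0.35. With the totals of all ends as the expected share, only 3 calls among the members were for more ends, all in genes without enrichment at their TSS. Zfp746 went from 20 ends in Control to 40 in TGFB1, a log2 ratio of 1.49 (exact binomial test, adjusted p = 0.000613), and Zfp937 from 11 to 22, a log2 ratio of 1.49 (adjusted p = 0.0144). Zfp869 went from 21 ends in Control to 38 in miR-9-LOF, a log2 ratio of 0.92 (exact binomial test, adjusted p = 0.0387). None of the 3 passed with a window of 5 kb, where the ratios were 0.37, 0.84 and 0.06. Among the 22 corepressor genes, 0 had more and 9 fewer ends in TGFB1 against Control, 1 and 12 in TGFB1+miR-9-LOF against TGFB1, 0 and 16 in miR-9-LOF against Control, and 0 and 2 in TGFB1+miR-9-LOF against miR-9-LOF. Fewer ends were thus found in 40.9%, 54.5%, 72.7% and 9.09% of them, beside 34.5%, 38.9%, 47.4% and 6.78% of all TSS. Scaled to ends at TSS, 0, 1, 5 and 0 had more and 2, 4, 4 and 0 fewer.

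Contacts inside the clusters were counted between 10-kb bins at least 20 kb apart and set against the number expected from the distance decay of the chromosome and the coverage of each bin, which was taken from its pairs with bins outside the cluster up to 5 Mb away. Clusters held more pairs than this expectation. In Control 23331 pairs were observed for 16277 expected, a ratio of 1.43 (95% Poisson interval 1.42 to 1.45). The ratio was 1.47 (1.44 to 1.49) in TGFB1, 1.46 (1.44 to 1.48) in TGFB1+miR-9-LOF and 1.44 (1.42 to 1.46) in miR-9-LOF. Olfr clusters, by the same count, had 1.34, 1.43, 1.499 and 1.54. The size depended on how coverage was defined. With the pairs inside the clusters included in it, the ratios were 1.08, 1.09, 1.10 and 1.09, and with coverage taken from pairs between chromosomes they turned to 0.817, 0.851, 0.820 and 0.805, while those of Olfr clusters were 1.64, 1.59, 1.54 and 1.65. So the excess was one over the contacts the same bins made with their surroundings, and not over their contacts with other chromosomes.

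With coverage from nearby pairs, the ratio inside clusters of Zfp genes changed little with distance up to 1 Mb. It was 1.42 to 1.46 over the libraries for pairs 20 to 100 kb apart, 1.42 to 1.497 at 100 to 300 kb and 1.35 to 1.48 at 300 to 1000 kb. From 1 to 2.5 Mb it was 1.89 to 2.02, on 41 to 78 pairs a library. In Olfr clusters the ratio was 1.12 to 1.29 for pairs 20 to 100 kb apart and 3.74 to 3.94 beyond 1 Mb. With coverage from pairs between chromosomes, the Zfp ratios were below 1 up to 1 Mb, at 0.813 to 0.846, 0.782 to 0.845 and 0.780 to 0.879 in the same bands, and 2.42 to 3.009 from 1 to 2.5 Mb. Those of Olfr clusters were then 1.296 to 1.38 at 20 to 100 kb and 3.83 to 4.58 beyond 1 Mb.

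With coverage from nearby pairs, clusters were set one by one beside all windows of the same length on the autosomes, whose median ratio was 0.860 to 0.941 and whose upper quartile was 1.17 to 1.38 over the lengths. Of 21 clusters with at least 50 expected pairs over the libraries, 15 lay above 1. Of the 20 that could be ranked among windows, 17 lay above the median window and 11 above the upper quartile. With coverage from pairs between chromosomes, 7 of 21 lay above 1, 5 of 20 above the median window and 1 above the upper quartile. By nearby coverage the highest was the chr7 cluster from Zfp553 to Zfp668, which held 10 members and 24 other coding TSS, with a ratio of 2.99 (2.94 to 3.05), and 2.87, 3.02, 3.07 and 3.11 in the single libraries, but by coverage from pairs between chromosomes it lay at 0.608 (0.597 to 0.620). It also held the most pairs, and without it the ratios over the remaining clusters were 1.30, 1.34, 1.33 and 1.32. Next came the chr6 cluster from Zfp786 to Zfp467 at 2.01 (1.95 to 2.06) and the chr4 cluster at 1.90 (1.75 to 2.07), which were at 0.899 and 0.715 by the other coverage. The lowest was the region around Zfp40 at 0.453 (0.325 to 0.615), followed by the chr7 cluster from Zfp787 to Zfp28 at 0.627 (0.595 to 0.661), which had 0.572, 0.675, 0.697 and 0.614 in the single libraries. These were at 0.899 and 0.883 by coverage from pairs between chromosomes, and the highest was then the chr2 cluster from Zfp120 to Zfp345 at 2.34 (2.16 to 2.52). In the highest and the lowest chr7 cluster the libraries lay closer to each other than the clusters did.

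**Figure D4:**
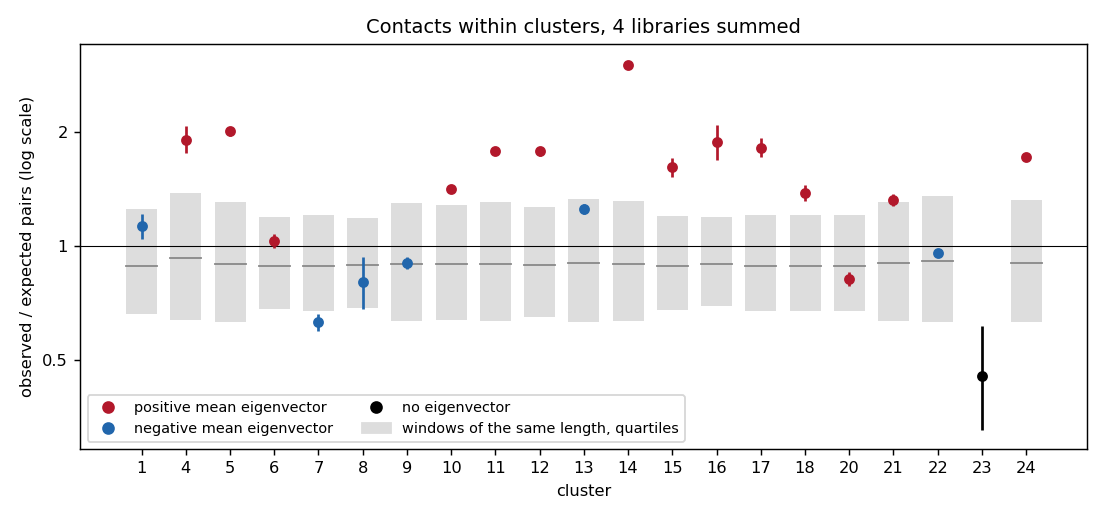
Observed over expected pairs inside each cluster, with coverage from nearby pairs outside it, on a log scale, with the 4 libraries summed and 95% Poisson intervals, coloured by the sign of the cluster's mean eigenvector. Grey boxes span the quartiles of windows of the same length. Cluster 14, from Zfp553 to Zfp668 on chr7, is highest at 2.99, and clusters with a positive eigenvector lie above those with a negative one in most cases, an order that turns when coverage is taken from pairs between chromosomes.

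The clusters were divided by the sign of an eigenvector of the contact map, and their position in the nucleus was not measured. The first eigenvector of the contact map in 250-kb bins, signed so that bins with many coding TSS are positive, separates the open A compartment from the closed B compartment. It correlated with the density of TSS at r = 0.18 to 0.58 over chromosomes. Of 63 bins with clustered Zfp genes, 25 were negative (39.7%), against 4882 of 9348 autosomal bins (52.2%) and 137 of 161 Olfr bins (85.1%). Among clusters with at least 50 expected pairs, those with a positive mean eigenvector lay above 1 in 13 of 14 cases with a median ratio of 1.75, and those with a negative one in 2 of 6 cases with a median of 0.93. Summed, the former had 1.69, 1.74, 1.71 and 1.71 and the latter 0.94, 0.97, 0.99 and 1.00. The order turned when coverage was taken from pairs between chromosomes, which gave 0.73, 0.77, 0.75 and 0.72 for positive and 1.37, 1.32, 1.18 and 1.23 for negative clusters. H3K4me3 was found in clusters of either sign. In clusters with a negative mean eigenvector 25, 19, 5 and 6 of 51 members were enriched, and in those with a positive one 44, 26, 6 and 12 of 138, so that in Control the shares were 49.0% and 31.9%. These shares are of enrichment over the flank and not of the number of ends. The ends in Control summed to 8263 over the 51 members and 26171 over the 138, with medians of 147 and 128 a member. The clusters with a positive mean eigenvector include the poorly covered chr4 cluster, of which 2 bins entered the eigenvector. The sign cuts a continuous value, and the mean was small in some clusters. It was 0.12 in the chr9 cluster from Zfp560 to Zfp846, 0.090 in the chr11 cluster and 0.057 in the chr13 cluster.

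Between libraries the contacts inside clusters differed by little. TGFB1 stood 0.035 above Control on the log2 scale (95% interval 0.0050 to 0.065), and the interval covered 0 in TGFB1+miR-9-LOF over TGFB1 (-0.0099), in miR-9-LOF over Control (0.0042) and in TGFB1+miR-9-LOF over miR-9-LOF (0.021). These calls were not stable. For TGFB1 over Control the interval covered 0 for pairs at least 100 kb apart (-0.0095 to 0.080), with 1 distance decay for all autosomes (-0.010 to 0.050) and with own pairs in the coverage (-0.015 to 0.045). With coverage from pairs between chromosomes the ratio was larger, at 0.059 (0.029 to 0.089). The interval cleared 0 for miR-9-LOF over Control with clusters linked at 250 kb (0.026 to 0.089) and for TGFB1+miR-9-LOF over miR-9-LOF at 100 kb and more (0.029 to 0.12). For TGFB1+miR-9-LOF over TGFB1 it lay below 0 with coverage from pairs between chromosomes (-0.087 to -0.021). In clusters with a negative mean eigenvector miR-9-LOF stood 0.089 above Control (0.032 to 0.15). At the members' TSS the medians were -0.24 to -0.71 in the same comparisons, and -0.093 to 0.0075 when scaled to ends at TSS.

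Zinc finger clusters on different chromosomes were not clearly closer to each other than their coverage predicts. Over 206 pairs of clusters with an expectation above 0, 76 read pairs were observed for 68.3 expected in Control, a ratio of 1.11 (0.876 to 1.39). It was 1.15 (0.832 to 1.56) in TGFB1, 1.18 (0.915 to 1.4997) in TGFB1+miR-9-LOF and 0.958 (0.729 to 1.24) in miR-9-LOF. The 4 libraries together gave 244 pairs for 223 expected, a ratio of 1.09 (0.961 to 1.24), and no excess was detectable at this depth. Without the cluster with the most such pairs in each library, which was the chr17 cluster from Zfp160 to Zfp946 in Control and the chr17 cluster from Zfp871 to Zfp414 in the other 3, the ratio was 0.993. With each cluster left out of all libraries in turn, a check added after the data were seen, it was 1.04 to 1.13 and each interval covered 1. The lower bound passed 1 when coverage was set within quintiles of the eigenvector, with 1.16 (1.02 to 1.31), and without the filter on mapping quality, with 1.14 (1.01 to 1.27). It also did so among clusters with a negative mean eigenvector, where 19 pairs were observed for 11.015 expected, a ratio of 1.72 (1.04 to 2.69), and 9 of them for 3.31 in miR-9-LOF (2.72, 1.24 to 5.16). Olfr clusters met each other on different chromosomes at 1.49 times the expectation (1.40 to 1.60) and at 1.15 times within quintiles, and Zfp with Olfr clusters at 1.03 times (0.961 to 1.10). Zfp clusters on the same chromosome gave 1.12 (1.09 to 1.16) at 1 Mb and more, from 5042 read pairs over 44 pairs of clusters. Most of these pairs of clusters lie on chr7, and the ratio was not split by chromosome. For this ratio no other definition of coverage, no quintiles and no count for Olfr clusters were tried.

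Single pairs of clusters rested on few reads. Of 211 possible pairs, 118 had no read pair, 7 had an interval above 1 and 0 had one below it. The intervals of pairs and of clusters were not adjusted for their number, so some can lie above 1 by counting error alone. The 3 with the most over expectation, among those with at least 10 pairs, were the chr7 cluster from Zfp141 to Zfp819 with the chr17 cluster from Zfp160 to Zfp946, with 10 pairs for 3.38 expected (2.96, 1.42 to 5.45), the chr7 cluster from Zfp84 to Zfp146 with the chr17 cluster from Zfp871 to Zfp414, with 11 for 5.42 (2.03, 1.01 to 3.63), and the chr7 cluster from Zfp607b to Zfp36 with the latter, with 13 for 7.41 (1.75, 0.934 to 3.00). By cluster, the most pairs with clusters on other chromosomes belonged to the chr17 cluster from Zfp871 to Zfp414, with 70 for 54.98 expected (1.27, 0.992 to 1.61). The single cluster with an interval above 1 was the chr9 cluster from Zfp653 to Zfp810, which holds Zfp809, with 33 pairs for 20.7 expected (1.59, 1.10 to 2.24). The Control library supplied 15 of its 33 pairs, and miR-9-LOF supplied 3 for 5.27 expected.

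**Figure D5:**
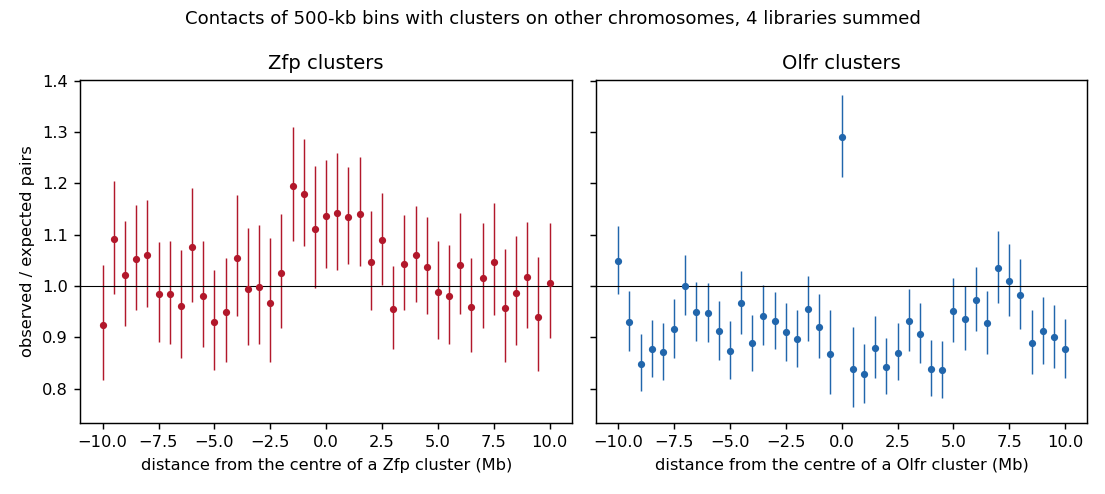
Observed over expected pairs between 500-kb bins and clusters on other chromosomes, by distance of the bin from the centre of a Zfp cluster (left) or an Olfr cluster (right), with the 4 libraries summed and 95% Poisson intervals. Zfp clusters have 1.14 at the centre and 1.12 at 0.5 to 2 Mb, and Olfr clusters have 1.29 at the centre and 0.881 at 0.5 to 2 Mb.

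Summed over bins, the profile of such contacts around the Zfp clusters was above 1 up to about 2 Mb on either side. Single distances from 5.5 to 20 Mb ranged from 0.874 to 1.15, a range that holds the value at the centre. Those from 0.5 to 2 Mb ranged from 1.03 to 1.19. Bins at the centre of a Zfp cluster met Zfp clusters on other chromosomes at 1.14 times the expectation (1.03 to 1.25), and bins 0.5 to 2 Mb away at 1.12 times (1.09 to 1.16), with 1.01 at 2.5 to 5 Mb and 1.01 at 5.5 to 20 Mb. Olfr clusters had 1.29 at the centre (1.21 to 1.37), 0.881 at 0.5 to 2 Mb and 0.903 at 2.5 to 5 Mb. A pair between 2 clusters is counted from both of them in the centre bins, so the intervals there are too narrow. Bins beside the centre that touch any cluster were left out. Those of neighbouring clusters can overlap, so some of their pairs count more than once and their intervals are too narrow as well. No profile was made within quintiles of the eigenvector. The partners of Zfp clusters on other chromosomes lay in bins with a negative eigenvector in 28.6%, 29.5%, 31.7% and 31.7% of cases, against 31.5%, 33.1%, 35.3% and 35.4% for all ends of pairs between chromosomes. Between libraries, the log2 ratio of contacts between clusters was 0.054 (-0.53 to 0.62) in TGFB1 over Control, 0.033 in TGFB1+miR-9-LOF over TGFB1, -0.22 in miR-9-LOF over Control and 0.30 in TGFB1+miR-9-LOF over miR-9-LOF, with intervals that covered 0 in each.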

How the data were processed

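H3K4me3 HiChIP-seq was analysed in 4 libraries, 1 per condition. Per the submitters' processing notes, the authors aligned reads to mm10 with HiC-Pro, removed duplicates and assigned ends to MboI fragments. The positions they deposited are 1 line per valid pair, without a table of counts, and these lines were tallied. For both ends the authors deposited a mapping quality score, which had to be at least 30. Fragment names, strands and fragment distances were used for no value except in counting each pair of fragments once.

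Counts were made with pandas 2.3.3, pysam 0.24.0, numpy 2.4.6 and scipy 1.17.1 under Python 3.11.15, and plots with matplotlib 3.10.9. Ends within 2 kb of the 5′ end of each autosomal coding gene of GENCODE vM21 were compared with those 10 to 100 kb away. Contacts up to 5 Mb apart were counted in 10-kb bins with the distance decay of each chromosome, and contacts between chromosomes were set against the coverage of the bins in pairs of the same chromosomes. The calls of enriched TSS, the exact binomial comparisons and the main expectations within and between clusters were tested on simulated data. The Wald test, the eigenvector, the quintiles, the ranking among windows and the other definitions of coverage were not. Intervals cover counting error only, since each condition is 1 library. Reads carry no molecular identifiers. The difference of the TGFB1 effects with and without miR-9-LOF was tested by a Wald chi-square test on counting variance with Benjamini-Hochberg adjustment.

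The members and lists were chosen with earlier results of these data known. Genes named are the 8 members with the highest and 5 with the lowest median enrichment among those with at least 50 flank ends in every library, up to 3 members with the smallest p in each direction of each comparison, Zfp809, Zfp568, Zfp708 and Zfp961, the highest and lowest clusters and the 3 leading pairs of clusters. Other neighbours in a cluster, the promoters printed and the corepressor genes described were picked after their values were seen. Alternatives changed the mapping quality filter, window, fold, depth, TSS, scaling, bins, distances, linking of clusters and the expectation. Those on coverage, on clusters with few other genes, on the sign of the eigenvector and on the chromosome mean were chosen after seeing the data.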

Additional observations from a re-analysis of the deposited data

Results flagged for a closer look

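For 4 members the log2 ratio of TGFB1 over Control differed from that of TGFB1+miR-9-LOF over miR-9-LOF past a false discovery rate of 0.05 (Wald chi-square test of the difference, adjusted over 16982 TSS with at least 20 ends in every library). Zfp933, in the chr4 cluster, had 84, 27, 47 and 37 ends, and its log2 ratio was -1.15 without and 0.41 with the antagomiR, a difference of 1.56. Of its ends, 35.4% lay below the mapping quality limit before filtering. Zfp467 had 351, 149, 161 and 174 ends and ratios of -0.74 and -0.05, a difference of 0.70. Zfp629 had 344, 157, 150 and 151 ends and ratios of -0.64 and 0.06, a difference of 0.70. Zfp646 had 508, 223, 196 and 216 ends and ratios of -0.70 and -0.07, a difference of 0.62. By the Wald chi-square test on counts the adjusted p was 0.0316 for Zfp933, 0.0426 for Zfp467, 0.0497 for Zfp629 and 0.0362 for Zfp646. In all 4 genes Control was well above the other libraries per 1000000 ends. Zfp467 and Zfp646 have another coding TSS within 4 kb, so these ends are not theirs alone.

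These were 4 of 145 members tested, and 456 of all 16982 TSS were called (2.69%), so the members were close to the background. At an unadjusted p under 0.05 there were 24 members and 2913 TSS in all. The median difference was 0.15 over the members and 0.14 over all TSS. With 1 library a condition, the difference was tested against counting error only, and its cause was not tested.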

How the results depend on the processing

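No paired analysis was possible because each condition had 1 library and the labels give no replicate numbers. For the same reason no replicate could be left out. Of the values that answer a comparison under each alternative, 157 stayed within the set limits, 55 moved and 4 reversed. The cause was not tested except where the alternative's own construction shows it. Enriched members, by library in the order of the report, numbered 17, 7, 1 and 2 with a window of 5 kb (10.8%, 5.26%, 0.572% and 1.24% of all TSS), 118, 109, 86 and 95 at 2-fold (43.9%, 40.9%, 33.7% and 36.7%) and 12, 4, 1 and 1 at 8-fold (9.88%, 4.24%, 0.375% and 0.851%). With a window of 1 kb there were 104, 87, 51 and 60, and against the larger of flank and chromosome mean 50, 24, 5 and 9, with the shares over all TSS in the report. Scaled to ends at coding TSS, 6, 12, 38 and 2 members were called in the 4 comparisons in the order of the report, beside 5.01%, 16.9%, 45.6% and 1.23% of all TSS.

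Contacts inside clusters reversed to 0.817, 0.851, 0.820 and 0.805 with coverage from pairs between chromosomes, and moved to 1.08, 1.09, 1.10 and 1.09 with their own pairs included in it. They were 1.30, 1.34, 1.33 and 1.32 without the cluster with the most pairs, 1.32, 1.36, 1.36 and 1.37 with clusters linked at 250 kb, 1.55, 1.57, 1.55 and 1.53 with 1 distance decay for all autosomes, and 1.35, 1.36, 1.40 and 1.35 in clusters with fewer other coding genes than members. At 100 kb and more they were 1.41 in miR-9-LOF and 1.48 in TGFB1+miR-9-LOF. Contacts between chromosomes moved to 0.660 in miR-9-LOF in clusters with fewer other coding genes.

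The log2 ratios of contacts inside clusters ranged from -0.054 to 0.075 among those that moved, and some intervals came to cover or clear 0, as the report states. The 0.089 of miR-9-LOF over Control in clusters with a negative mean eigenvector was not among the values classed. In clusters with fewer other coding genes they were 0.0020 for TGFB1 over Control (-0.044 to 0.048), 0.053 (0.0066 to 0.099) for TGFB1+miR-9-LOF over miR-9-LOF, where contacts between chromosomes had 0.94, and 0.046 for the antagomiR in TGFB1-treated cells. With coverage from pairs between chromosomes TGFB1+miR-9-LOF over TGFB1 was -0.054 (-0.087 to -0.021). For miR-9-LOF over Control the ratio was 0.058 with linking at 250 kb, -0.041 at 100 kb and more and -0.025 with 1 distance decay. For TGFB1+miR-9-LOF over miR-9-LOF it was -0.010 with linking at 250 kb and 0.075 at 100 kb and more. Of the values of single named genes, 53 kept their call and 7 lost it, 3 with the window of 5 kb and 4 with the scaling to TSS. Depth limits contacts between chromosomes, where 42 to 76 pairs a library were observed, and members with under 20 ends, which could not be compared between libraries.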
